A study of Mus musculus with 66 samples.

Results

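The first sequenced stretch of each mouse autosome, from 3.0 to 8.0 Mb of chromosomes 1 to 19, was examined for islands of H3K9me3 and H3K36me3 in prefrontal cortex (PFC). An island is a stretch in which the peak caller SICER found clustered ChIP reads, and every listed island with its midpoint between these positions was taken, whatever its strength. Position alone chose the members, which were 108360 of the 2049788 listed islands (5.29%), with 66182 of H3K9me3 and 42178 of H3K36me3. The other 1717846 islands of the autosomes are called the rest here. Tissue came from adolescent DBA/2J mice given ethanol or water by gavage, the ethanol being 4 g/kg of a 25% w/v solution in water, on alternating pairs of days from postnatal day (PND) 29 to 42, with collection of tissue 24 h later. Ethanol and water mice alike were first habituated to gavage with saccharin. A pool combined the PFC of 3 mice of a single sex and treatment, and there were 6 ethanol and 5 water pools of males and the same numbers of females, which gave 22 pools and 44 precipitated libraries. DBA/2J is an inbred strain, its reads were placed on the GRCm38 reference of another strain, whole PFC mixes neurons and glia, and a pool hides the spread between its mice.

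Mouse autosomes are telocentric: the centromere lies at the very start of the chromosome, and a long gap in the assembly stands for its satellite arrays, so the listed zone is the sequence nearest to the centromere. The pericentromere next to it is packed as constitutive heterochromatin, in which SUV39H enzymes place H3K9me3 on repeats and HP1 proteins bind the mark. H3K36me3 is laid down by SETD2 behind elongating RNA polymerase II and is known for the bodies of transcribed genes. An input library is sheared chromatin that was not precipitated, and input reads are known to pile up where a reference holds fewer copies of a repeat than the genome does.

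Some of the sequences that carried many reads or high enrichment in the zone are shown from GRCm38, plus strand, 5′ to 3′. The first pair, chr9:3000001-3000234 and chr9:3000235-3000468, are neighbouring units of a tandem array of 234-base units at the start of chromosome 9, with the 149 of 234 bases that both units share at a position in capitals. The third, chr12:3109822-3110121, lies in the other island with very many input reads, and its capitals (256 of 300 bases) mark words of 12 bases that also occur in the chromosome 9 array on either strand. The last, chr17:4626169-4626468, is from the zone region with the highest H3K36me3 ChIP/input, with CATTC on either strand in capitals (240 bases).
chr9 array, unit 1: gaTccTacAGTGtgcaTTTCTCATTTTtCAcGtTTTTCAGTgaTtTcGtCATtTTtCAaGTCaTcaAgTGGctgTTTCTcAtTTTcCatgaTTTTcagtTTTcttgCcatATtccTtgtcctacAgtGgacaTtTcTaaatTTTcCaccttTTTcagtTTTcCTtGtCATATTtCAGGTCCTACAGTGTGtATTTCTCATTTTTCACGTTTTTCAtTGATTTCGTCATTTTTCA
chr9 array, unit 2: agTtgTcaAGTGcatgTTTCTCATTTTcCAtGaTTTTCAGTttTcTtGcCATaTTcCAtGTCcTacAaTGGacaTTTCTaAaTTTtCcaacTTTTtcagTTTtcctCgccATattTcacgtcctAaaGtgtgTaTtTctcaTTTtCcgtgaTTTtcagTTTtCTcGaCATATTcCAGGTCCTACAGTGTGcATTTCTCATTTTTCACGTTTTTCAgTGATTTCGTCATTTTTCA
chr12 pile-up: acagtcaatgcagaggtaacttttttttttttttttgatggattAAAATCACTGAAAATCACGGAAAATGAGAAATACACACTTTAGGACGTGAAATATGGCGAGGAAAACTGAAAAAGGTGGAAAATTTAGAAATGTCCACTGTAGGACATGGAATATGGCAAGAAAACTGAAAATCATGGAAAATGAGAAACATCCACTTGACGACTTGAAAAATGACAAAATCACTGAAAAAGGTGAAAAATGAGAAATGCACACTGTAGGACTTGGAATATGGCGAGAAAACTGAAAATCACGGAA
H3K36me3, highest ChIP/input: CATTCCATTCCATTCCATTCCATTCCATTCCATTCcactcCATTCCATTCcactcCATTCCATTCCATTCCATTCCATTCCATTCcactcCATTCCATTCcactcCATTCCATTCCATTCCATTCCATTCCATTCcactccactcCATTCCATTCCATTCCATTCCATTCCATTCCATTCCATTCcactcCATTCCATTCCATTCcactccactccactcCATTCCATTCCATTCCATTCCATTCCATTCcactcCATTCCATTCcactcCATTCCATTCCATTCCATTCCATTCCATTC

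Over the whole 38.4 kb array, 71.4% of bases were identical to the base 234 positions on. Its most frequent 12-base word, ATTTCTCATTTT, occurred 296 times on the plus strand there. Counting both strands, 306 of the 424 copies in the zone were on chromosome 9, against 2780 copies in the rest of the autosomes. The word stood in 12 of 2849 H3K9me3 regions of the zone (0.421%) and in 0.352% of the 42840 regions elsewhere, a region being sequence under islands in 11 or more of a mark's 22 libraries. For H3K36me3 it stood in 10 of 1740 regions (0.575%) and in 0.301% of 27285. The run CATTCCATTCCATTC occurred 16 times in the chromosome 17 region, in no other H3K36me3 region of the zone, and in 1 of the 27285 elsewhere. Matches of CATTC and of the longer run overlap, since the run repeats it. Such matches describe the letters of a window and not a bound site, and the motifs were chosen after the regions were known.

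The zone held 94.2 Mb of sequence other than N, which was 3.93% of the autosomes, beside 2302 Mb in the rest. It was richer in masked repeats than the rest (39.8% and 33.2%), close to it in GC content (41.7% and 41.9%) and had a smaller share of sequence in protein-coding gene bodies (38.0% and 41.5%), although 904 protein-coding genes started there, or 9.59 per Mb against 8.65. Libraries listed 2178 to 3858 H3K9me3 islands in the zone (median 3010) and 1011 to 2881 of H3K36me3. Autosomal islands held 4788682 to 13163584 ChIP reads of H3K9me3 and 1599894 to 4565158 of H3K36me3, and both marks of a pool were set against the same input library. The labelled tissue could be checked only weakly. H3K36me3 islands lay on the bodies of 3 of 6 neuronal marker genes in at least 11 libraries (Rbfox3, Syt1 and Map2), of 1 of 4 glial markers (Mbp; Aldoc had none in any library) and of 2 of 6 markers of tissues the dissection should lack (Krt5 and Ins2; Alb and Cd3e had none), so the lists did not separate. Several libraries stood apart. In female water replicate 2 of H3K9me3, 29.1% of zone islands had a false discovery rate (FDR) of at most 0.01, with 74.0 to 84.3% in the other pools of its group. Male ethanol replicate 6 of H3K36me3 had 7.34%, with 32.1 to 67.5% in its group, and male ethanol replicate 4 and female water replicate 4 of H3K36me3 covered the least sequence. Leaving out any single pool changed neither the direction nor the call of the 20 differences between the zone and the rest of the autosomes in coverage, reads per kb, ChIP/input and FDR share. It was not run for single chromosomes, other stretches or other sets of islands.

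Islands of both marks were denser next to the centromere than elsewhere, and this held in every pool. In males, H3K9me3 islands covered 11.1% ± 1.24 of the zone (SD, n = 11; lowest 8.75, median 11, highest 13.5) and 6.53% ± 0.804 of the rest, a 1.70-fold difference. Female pools were lower at both places, with 9.88% ± 1.19 (7.47, 10.01 and 11.04) and 5.81% ± 0.764, and the ratio was again 1.70-fold. The zone was the higher in 11 of 11 pools of each sex (two-sided exact paired permutation test, p = 0.000977, the smallest that 11 pools allow, adjusted p = 0.00115 over 20 tests).

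H3K36me3, the mark of transcribed gene bodies, showed the same order. It covered 6.05% ± 1.11 of the zone in males (SD, n = 11; 3.99, 5.87 and 7.88 as lowest, median and highest) and 3.83% ± 0.640 of the rest, or 1.58-fold. In females it covered 5.96% ± 1.07 (3.74, 6.24 and 7.37) and 3.85% ± 0.663, or 1.55-fold. Again 11 of 11 pools of each sex were higher in the zone, with the same exact p of 0.000977. Values of the pools overlapped between zone and rest for H3K36me3, and the difference was seen within each pool. Keeping only islands with an FDR of at most 0.01 left H3K9me3 at 9.46 and 5.41% in males and 8.06 and 4.60% in females (1.75-fold in both), and H3K36me3 at 2.20 and 1.47% in males and 2.25 and 1.55% in females.

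**Figure D1:**
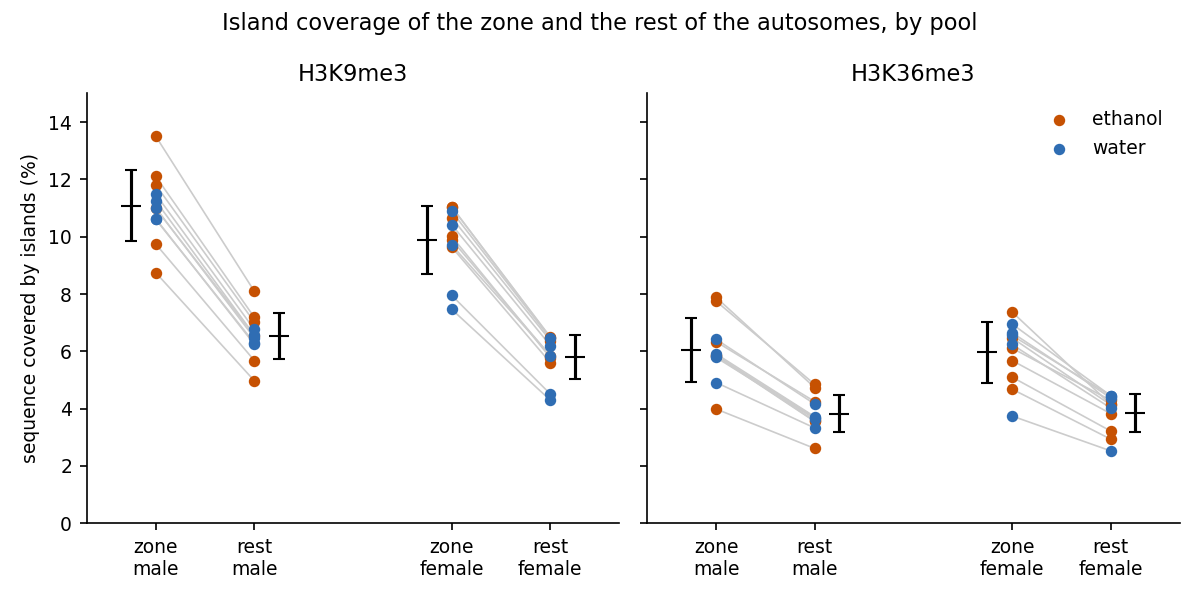
Percent of sequence covered by islands in the zone at 3.0 to 8.0 Mb and in the rest of the autosomes, for each of the 22 pools of each mark, with lines joining the values of a pool and bars for mean and SD of the 11 pools of a sex. Every line falls from the zone to the rest, in ethanol and water pools alike.

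The difference was not limited to the zone. The neighbouring 5 Mb, from 8 to 13 Mb, was covered to 10.6% ± 1.23 by H3K9me3 in males and 9.40% ± 1.22 in females, so the zone was only 1.05-fold higher, though in 11 of 11 pools of each sex (exact p = 0.000977, adjusted p = 0.00122). Not all bins of the zone shared this H3K9me3 excess, as given below. For H3K36me3 the neighbouring stretch had 5.21% ± 1.09 and 5.08% ± 0.964, which left the zone 1.16-fold and 1.17-fold higher, also in 11 of 11 pools. Against the last 5 Mb of the autosomes the ratio was larger, at 2.20-fold in males and 2.21-fold in females for H3K9me3, whose distal coverage was 5.03 and 4.48%. For H3K36me3 it was 1.68-fold and 1.59-fold.

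Within the zone, the first Mb stood above the rest of it. H3K9me3 covered 14.8% ± 1.77 from 3 to 4 Mb (SD, n = 22 pools; 10.5 to 19.03), and the next 4 bins of 1 Mb had means of 8.65, 9.55, 8.43 and 11.1%. H3K36me3 covered 7.84% ± 1.253 (5.29 to 10.1) of the first bin and 5.63, 5.31, 5.36 and 5.92% of the following ones. The first Mb was above the mean of the other 4 in 22 of 22 pools for both marks, by 1.57-fold for H3K9me3 and 1.41-fold for H3K36me3. From 8 to 13 Mb, the bins of 1 Mb had H3K9me3 means of 9.67, 9.98, 10.4, 10.4 and 9.51%. The zone's H3K9me3 bins at 4 to 5 and 6 to 7 Mb were below all of these. H3K36me3 means from 8 to 13 Mb were 5.16, 5.12, 5.10, 5.17 and 5.17%, below every bin of the zone. The first 0.5 Mb was the highest, with 19.5% ± 2.26 for H3K9me3 and 9.82% ± 1.40 for H3K36me3. Later bins of 0.5 Mb in the zone went up and down, for H3K9me3 between 7.44 and 12.98%. At the outer edge the last 1 Mb inside 8 Mb exceeded the first 1 Mb outside by 1.40 percentage points of H3K9me3 coverage in 22 of 22 pools. For H3K36me3 coverage the step was 0.761 points, in 21 of 22. Larger steps between neighbouring H3K9me3 bins of 1 Mb occurred away from the edge, such as that from 8.43% at 6 Mb to 11.1% at 7 Mb.

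**Figure D2:**
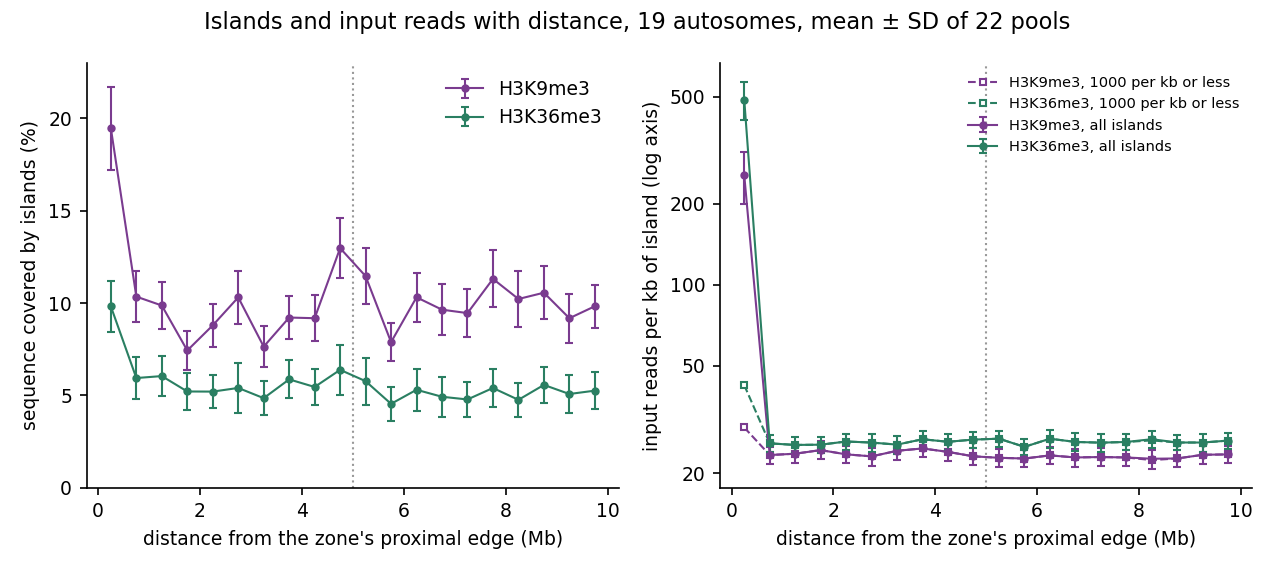
Left, percent of sequence covered by islands in bins of 0.5 Mb, against distance from the start of the zone, over 19 autosomes; right, input reads per kb of island on a log axis. Points are means of 22 pools with SD, the dotted line is the zone's outer edge, and open squares leave out islands of over 1000 input reads per kb. The first bin is the highest in both panels, and without those islands its input is lower but still above the other bins, at 29.5 reads per kb for H3K9me3 and 42.4 for H3K36me3.

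Read density differed from length. Zone islands carried 63.4 ± 8.85 input reads per kb in males for H3K9me3 (SD, n = 11; 49.4, 64.5 and 77.3) and islands of the rest 26.8 ± 2.33, a log2 difference of 1.23. In females the values were 66.8 ± 12.5 and 27.3 ± 2.22, and for H3K36me3 99.7 ± 8.99 and 31.5 ± 1.93 in males and 98.7 ± 20.1 and 31.2 ± 2.68 in females, with log2 differences of 1.27, 1.66 and 1.64. ChIP reads rose less than input reads did. They stood at 82.9 ± 10.4 per kb in the zone and 44.1 ± 6.71 in the rest for male H3K9me3, at 79.3 ± 4.57 and 41.6 ± 2.26 for female H3K9me3, at 79.2 ± 15.2 and 32.6 ± 5.94 for male H3K36me3 and at 75.9 ± 6.47 and 32.6 ± 3.78 for female H3K36me3. Each of these differences was seen in 11 of 11 pools (exact p = 0.000977).

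ChIP/input, the ratio of summed ChIP to summed input reads of an area, was lower in the zone. Male H3K9me3 had 1.34 ± 0.311 (SD, n = 11; 1.098, 1.27 and 2.23) against 1.66 ± 0.330, a log2 difference of -0.32, and 0 of 11 pools were higher in the zone. Female H3K9me3 had 1.22 ± 0.177 against 1.53 ± 0.106 (log2 -0.34, 0 of 11), and female H3K36me3 0.792 ± 0.148 against 1.06 ± 0.190 (log2 -0.41, 0 of 11), each with an exact p of 0.000977. Male H3K36me3 had 0.798 ± 0.149 against 1.03 ± 0.181 (log2 -0.38, 2 of 11 higher, exact p = 0.00781, adjusted p = 0.00868), and against the distal 5 Mb it missed the threshold (log2 -0.18, exact p = 0.0830). When only islands at FDR 0.01 or below were kept, the male H3K9me3 difference also missed it, at -0.070 with 5 of 11 pools higher (exact p = 0.167). The share of islands with an FDR of at most 0.01 was 78.7% ± 6.17 in the zone and 75.3% ± 7.01 in the rest for male H3K9me3, and 74.0% ± 15.7 and 71.1% ± 15.4 for females, higher in 11 of 11 pools of each. The female difference of 2.88 points fell below the threshold against 8 to 13 Mb (0.717 points, exact p = 0.0518) and with a zone from 4.0 Mb (0.353 points, exact p = 0.371). For H3K36me3 it was higher in only 1 of 11 pools of each sex, at 38.5% ± 19.3 against 40.7% ± 20.4 in males and 40.1% ± 9.07 against 42.3% ± 10.4 in females (exact p = 0.0225 in both). Against 8 to 13 Mb the H3K36me3 share was instead higher in the zone, by 1.98 points in males (10 of 11 pools, exact p = 0.0107) and 2.86 in females (11 of 11, exact p = 0.000977), and with a zone to 6.0 Mb the differences from the rest were 0.0555 and 0.552 points.

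Exactly 2 zone islands in each of the 44 libraries held most of the zone's input reads. They had over 1000 input reads per kb, a bound set after the data were seen, and lay at the start of chromosome 9 and on chromosome 12. Together they covered a mean of 39.7 kb in H3K9me3 lists yet held 61.6% ± 4.40 of the zone's input reads (SD, n = 22; 55.1 to 72.0) and 48.7% ± 2.96 of its ChIP reads (42.5 to 54.1). In H3K36me3 lists they covered 39.2 kb and held 71% ± 3.69 of input (63.4 to 77.8) and 59.1% ± 8.13 of ChIP reads (48.8 to 80.8). Without such islands, in the zone and in the rest, input reads per kb were nearly level: 24.6 against 24.1 and 24.8 against 24.3 for male and female H3K9me3, and 28.6 against 26.8 and 28.4 against 26.6 for H3K36me3. Coverage hardly moved, at 1.69-, 1.70-, 1.57- and 1.54-fold. ChIP/input of H3K9me3 then turned round, to 1.77 against 1.74 in males and 1.63 against 1.61 in females, differences of 0.03 and 0.02 on the log2 scale that were higher in the zone in 11 of 11 pools (exact p = 0.000977). That of H3K36me3 stayed lower by a small amount, at 1.09 against 1.11 in males (1 of 11 higher, exact p = 0.00488) and 1.12 against 1.14 in females (2 of 11, exact p = 0.0264).

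With a zone starting at 4.0 Mb, the first Mb of each chromosome, and with it both islands, was left out of either side, while the rest kept its own 21 to 34 islands per library over that bound. The read values then had the reverse order. ChIP reads per kb differed by -0.13, -0.15, -0.20 and -0.18 on the log2 scale (H3K9me3 males and females, H3K36me3 males and females), input reads by -0.18, -0.20, -0.27 and -0.27, and ChIP/input by 0.05, 0.05, 0.07 and 0.08, all with an exact p of 0.000977. Coverage was still higher in the zone, by 3.42 and 3.10 percentage points for H3K9me3 and 1.78 and 1.65 points for H3K36me3.

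The larger locus was the chromosome 9 array printed above, chr9:3000001-3038400, 96.2% masked as repeat, which the annotation crowds with exons of the predicted genes Gm26870, Gm10722, Gm11168, Gm10721, Gm10720, Gm10719, Gm10718, Gm10717, Gm17535 and Gm10715. Its island had 367043 ± 53639 input reads (SD, n = 22; 283583 to 496876), or 9433 per kb, and 367129 ± 62327 H3K9me3 ChIP reads. The study's methods give the removal of reads with several matches for H3K9me3, and whether the reads counted at this repeat array had passed that step was not tested. ChIP/input there was 1.02 ± 0.243 for H3K9me3 (0.661 to 1.79) and 0.664 ± 0.165 for H3K36me3 (0.301 to 1.02), and its island had an FDR of at most 0.01 in 7 of 22 H3K9me3 and 4 of 22 H3K36me3 libraries. Among the 20569 autosomal H3K9me3 regions with an island in all 22 libraries it ranked 20408 by ChIP/input, so the array was longest in length and near the bottom in enrichment. The smaller locus, chr12:3109201-3110800, was intergenic, 137 kb from Rab10, a small GTPase of vesicle transport. It held 23561 ± 1216 input and 22296 ± 1230 H3K9me3 ChIP reads, a ratio of 0.948 ± 0.0647, with 0 of 22 H3K9me3 islands at that FDR, and its H3K36me3 ratio was 0.715 ± 0.131.

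Another stretch with raised input, chr11:3152801-3201000 over Sfi1 (a centrin-binding spindle protein) and Drg1 (a GTP-binding protein), behaved otherwise. Input was 173 ± 16.8 reads per kb in H3K9me3 lists, well under the bound, and ChIP/input of H3K9me3 was 1.74 ± 0.213 (1.55 to 2.57). For H3K36me3 the ratio there was 1.05 ± 0.248, and at least 1 island of the stretch passed the FDR threshold in 22 of 22 libraries of each mark.

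The autosomes did not share the pattern evenly. H3K9me3 covered more of the zone than of the rest of the same chromosome in 22 of 22 pools on 15 of 19 chromosomes, and less in 22 of 22 pools on 3. Chromosome 3 had the highest coverage, 22.3% ± 3.17 (SD, n = 22) against 7.05%, followed by chromosome 7 with 20.2% ± 2.73 against 9.12% and chromosome 9 with 18.9% ± 2.72 against 5.12%. The largest ratios were those of chromosome 9 (3.70-fold) and chromosome 3 (3.17-fold). Chromosome 17 was the opposite case: 2.98% ± 0.327 of its zone was covered and 8.06% ± 1.18 of its rest, 0.370-fold, with the highest zone value (3.65%) far under the mean of the rest. Chromosomes 2 (4.25 against 5.21%) and 12 (5.73 against 6.38%) were lower in every pool by smaller margins, and chromosome 19 was higher in 17 of 22.

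H3K36me3 followed a similar order. It was higher in the zone on 18 of 19 chromosomes by mean and on 13 in all 22 pools, with 10.001% ± 2.45 on chromosome 9 (2.88-fold), 9.49% ± 2.51 on chromosome 3 (2.27-fold), 8.63% ± 1.72 on chromosome 7 and 8.03% ± 1.76 on chromosome 14 (2.58-fold). Chromosome 17 was again the exception, with 4.17% ± 0.885 against 4.48% and 10 of 22 pools higher. Across the 19 chromosomes, zone coverage correlated with the repeat share of the zone, with Pearson's r = 0.76 and Spearman's rho = 0.87 for H3K9me3 and 0.87 and 0.90 for H3K36me3, and inversely with GC content (r = -0.64 and -0.53). The marks' coverages were correlated (r = 0.90, rho = 0.87). These describe 19 points that share the same libraries and base composition. Chromosome 14 sat off the trend for H3K9me3, with 60.2% repeats in its zone, more than any other, and 8.86% ± 1.14 covered, whereas chromosome 17 had the fewest repeats, 26.1%.

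**Figure D3:**
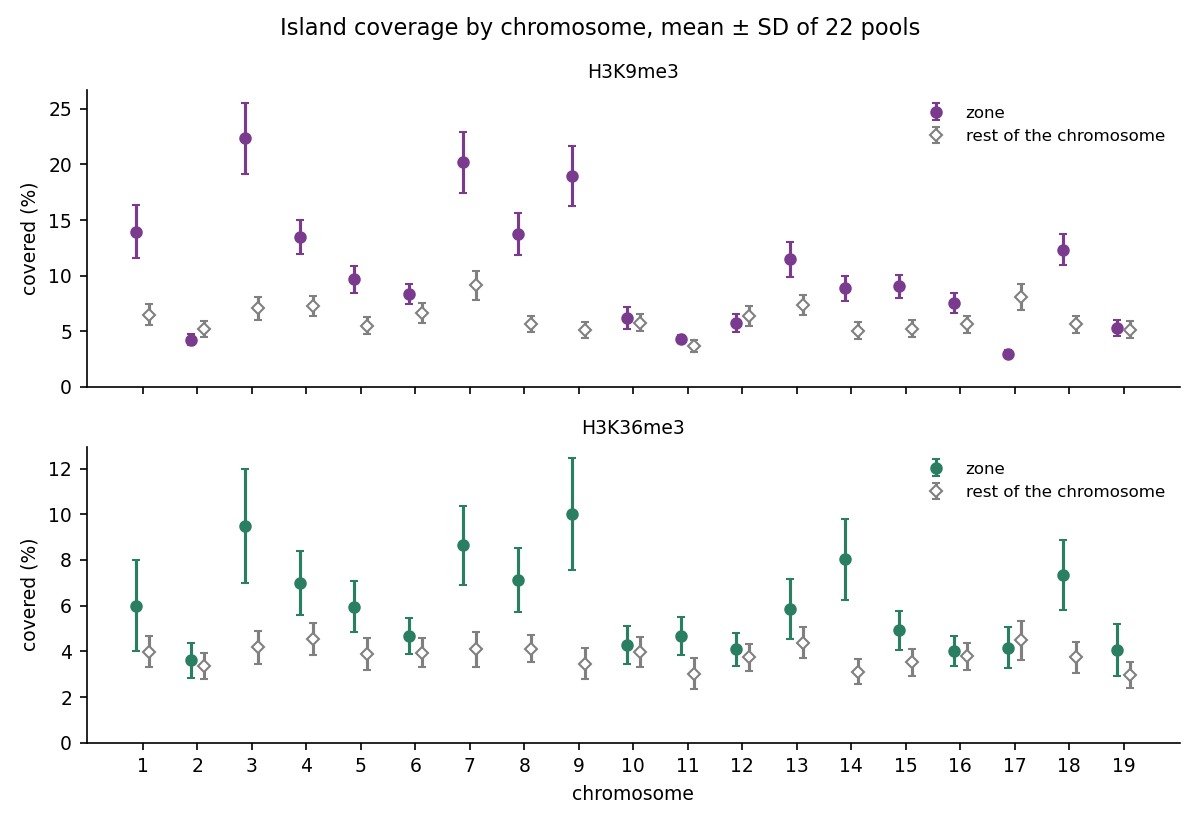
Percent of sequence covered by islands of H3K9me3 (top) and H3K36me3 (bottom) on each autosome, in the zone (filled circles) and in the rest of the same chromosome (open diamonds), mean and SD of 22 pools. Chromosomes 3, 7 and 9 stand highest for H3K9me3 and chromosome 17 lies below its rest.

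ChIP/input compared within each chromosome split the autosomes. For H3K9me3 it was higher in the zone on 13 and lower on 6 chromosomes in males and on 12 and 6 in females (exact paired permutation test, adjusted p at most 0.05 over 76 tests), and for H3K36me3 it was higher on 6 and lower on 6 in males and on 8 and 6 in females. In males the H3K9me3 difference was largest on chromosome 16 (log2 0.32), chromosome 14 (0.24) and chromosome 2 (0.22), and most negative on chromosome 12 (-0.63), chromosome 9 (-0.53) and chromosome 17 (-0.28). Without islands of over 1000 input reads per kb, male H3K9me3 lost its difference on chromosome 9 (log2 -0.01, exact p = 0.286) and kept -0.10 on chromosome 12. H3K36me3 stayed lower on chromosome 9, at -0.11 in males (exact p = 0.000977) and -0.098 in females (exact p = 0.00293). On chromosome 12 H3K36me3 differed by -0.030 and 0.0053. The number of chromosomes with a higher zone became 8 for male H3K9me3 and 1 and 2 for H3K36me3 in males and females. With islands at an FDR of at most 0.01 alone it was 7 and 5 for H3K9me3.

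Islands of the marks often lay on the same bases, counted over all listed islands. Of the H3K36me3 zone islands, only 38.5% in males and 40.1% in females had an FDR of at most 0.01. Overlap at that threshold was not computed. In a pool, 3.92 ± 0.813 Mb of the zone was under islands of both (SD, n = 22; 2.19 to 5.44), which was 40.1% ± 8.47 of the H3K9me3 length and 69.2% ± 6.41 of the H3K36me3 length, beside 40.5 and 64.7% in the rest. H3K9me3 islands recurred more between libraries. Of the zone, 21.6% was covered in at least 1 of the 22 H3K9me3 libraries (20.3 Mb), 9.68 Mb in at least 11 and 2.63 Mb (2.79%) in all 22. For H3K36me3 the same figures were 21.5% (20.2 Mb), 4.53 Mb and 0.547 Mb (0.581%). Zone islands were made mostly of repeats: 86.8% ± 1.246 of H3K9me3 length was masked, as was 81.7% ± 3.62 of H3K36me3 length, against 86.1 and 78.7% in the rest. Protein-coding bodies held 15% ± 0.559 of the zone's H3K9me3 length and 27.0% ± 4.62 of its H3K36me3 length, below the shares in the rest of 17.7 and 31.0%. Median island length was 2764 bp in the zone and 2636 bp in the rest for H3K9me3, and 17.8% of zone islands exceeded 5 kb against 14.9%.

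Genes of the zone seldom had an island at their start. A promoter under an H3K9me3 island in at least 11 libraries was found for 12 of 904 protein-coding genes (1.33%), and the share elsewhere was 0.703%. Gene bodies were marked more often: 166 of the 904 (18.4%) met that count for H3K9me3 and 257 (28.4%) for H3K36me3, beside 15.1 and 25.8% of the 19903 protein-coding genes of the rest. Vomeronasal receptors, which detect pheromones in the nose and sit in clusters, varied widely in their H3K9me3. The zone held 14 Vmn1r genes, 11 of them on chromosome 7. Of the 14, 7 had an H3K9me3 island in at least 11 libraries (50%, against 24.2% of Vmn1r genes elsewhere), with a median of 21% of the body covered against 0%. Vmn1r58 had 53.2% ± 14.4 of its body covered, Vmn1r60 50.8%, Vmn1r55 50.7%, Vmn1r59 48.4% and Vmn1r61 42.7%. Of 9 Vmn2r genes, all on chromosome 7, 8 met the same count (88.9%, and 85.7% elsewhere), led by Vmn2r36 with 33.8%, and their median of 9.96% was below the 20.0% of Vmn2r genes elsewhere. Of 10 odorant receptor genes (Olfr), 3 met it (30%, and 9.39% elsewhere), Olfr161 with 56.9% ± 21.2. No family was tested against its members elsewhere. Vmn and Olfr genes are near-identical copies in places, so the discarding of reads with several matches can lower values at some members.

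Zinc finger (Zfp) genes of the zone numbered 23, of which 16 lay on chromosome 7. Of the 23, 3 had H3K9me3 islands in at least 11 libraries (13%, against 25.1% elsewhere) and 8 had H3K36me3 islands (34.8%, against 33.4%). Zfp667 had 20.6% ± 12.7 of its body under H3K36me3, Zfp583 15.5% and Zfp579 13.5%, and H3K9me3 covered 0% of Zfp667 and Zfp583. The matrix metalloproteinases, enzymes that cut extracellular matrix, have 9 genes, 40.9% of the family, in the chromosome 9 zone. Among them Mmp1b alone met the count, with 27.9% ± 6.17 under H3K9me3 and 19.7% ± 6.15 under H3K36me3. The zone held 1084 predicted genes named Gm with a number, 177 of them on chromosome 14. Of the 1084, 146 met the count for H3K9me3 (13.5%, and 7.95% elsewhere) and 113 for H3K36me3 (10.4%, and 6.18% elsewhere), shares that were not tested against each other.

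Imprinted genes, expressed from a single parental copy, were represented by 18 members of the Peg3 and Peg10 clusters. H3K9me3 islands lay in at least 11 libraries on Pon3 (a lactonase, 9.83% ± 2.30 of the body, 22 libraries), Usp29 (4.25% ± 1.64, 22), Tfpi2 (a protease inhibitor, 3.70% ± 3.86, 12), Zim1 (2.49%, 13) and Ppp1r9a (neurabin, 2.19% ± 0.476, 22). H3K36me3 islands did on Zim1 (12% ± 6.67, 20), Usp29 (8.51% ± 3.62, 22), Zim3 (3.77%, 11), Sgce (3.26%, 20) and Ppp1r9a (2.76% ± 0.847, 22). Each mark was thus on 5 of the 18 bodies, where 18.4 and 28.4% of all protein-coding genes of the zone met the count for H3K9me3 and H3K36me3. No start of the 18 was marked in that many libraries, and Peg3 had no island of either mark. Of 64 genes chosen as expressed in brain, 29 had H3K9me3 islands and 44 H3K36me3 islands on the body in at least 11 libraries, 19 of each in all 22, beside 166 and 257 of the zone's 904 protein-coding genes (18.4 and 28.4%), without a test of the difference. A longer body has more room for an island. The 64 genes, from 5.29 kb (Penk) to 1526 kb (Rbfox1), were not matched in length to the others, so these shares are not like for like. The highest H3K9me3 shares of this list were on St18, a zinc finger transcription factor of neural cells (14% ± 2.08), Zeb1, a transcriptional repressor (13% ± 2.10), Dync2h1, a ciliary dynein heavy chain (10.9% ± 2.14), Atp6v1h, a subunit of the vesicle proton pump (8.65% ± 1.85), and Esr1, the estrogen receptor (8.09% ± 0.797). Atp6v1h and Esr1 were below the coverage of the whole zone, 11.1% in males and 9.88% in females. Oprm1, the mu opioid receptor, had 5.11% ± 1.61. Wide H3K36me3 lay on Brsk1, a kinase of neuronal polarity (32.1% ± 13.4, 21 libraries), Cacng7, an AMPA receptor partner (14.8% ± 11.5) and Dync2h1 (12.6% ± 3.98), and Brsk1 and Cacng7 had 0% under H3K9me3. The opioid genes Oprk1 and Penk and the hormone precursor Pomc had no island of either mark. Of 3 chromatin enzymes, Dnmt3a, a DNA methyltransferase, had H3K36me3 on 5.71% ± 3.76 of its body in 19 libraries, Kmt5b had it in 8, and Suv39h2, which writes H3K9me3, had no island.

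Enrichment differed among zone regions over a wide range. With ChIP/input given relative to all autosomal islands of the same library, the 1348 H3K9me3 zone regions with an island in all 22 libraries had a median of 1.08, close to 1.07 in the rest, and 247 were below 1. The 333 H3K36me3 regions had a median of 1.04 against 1.05. Among the most enriched H3K9me3 regions were a pair at the start of chromosome 12, chr12:3012801-3019600 (1.92 ± 0.293; SD, n = 22) and chr12:3009401-3012400 (1.91 ± 0.375), which were only 21 and 13.4% repeat, then chr1:6664201-6664400 in an intron of St18 (1.88 ± 0.851) and chr4:3080201-3084600 (1.79 ± 0.661). The highest for H3K36me3, and rank 1 of 5399 in the autosomes, was chr17:4625801-4626800, the CATTC repeat shown above, 368 kb from Arid1b, a chromatin remodelling subunit. Its mean of 8.18 ± 5.82 hid a spread from 2.10 to 26.5 between libraries. Further enriched H3K36me3 regions were at genes: an exon of Prkaa1, the catalytic subunit of AMP-activated kinase (chr15:5160601-5163200, 1.65 ± 0.410, with 0% repeat), and an intron of Akap9, a kinase anchor protein (chr5:4052401-4054600, 1.45 ± 0.258). Another, chr16:3324801-3329000, was intergenic (1.42 ± 0.217).

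Long regions were not the most enriched. After the chromosome 9 array (38800 bp for H3K9me3, relative ChIP/input 0.658 ± 0.0955), the longest H3K9me3 regions were chr16:3252001-3281400 (29400 bp, 1.49 ± 0.148), chr7:5939201-5965000 near Vmn1r65 (25800 bp, 1.44 ± 0.0822), chr7:5622601-5644800, 9.31 kb from Vmn1r61 (22200 bp, 1.57 ± 0.105), and chr9:3302001-3324000, 11.1 kb from the tRNA methyltransferase gene Alkbh8 (22000 bp, 1.34 ± 0.0744). For H3K36me3 the longest after the array were the Sfi1 and Drg1 stretch, chr11:3175201-3201000 (1.03 ± 0.117) and chr11:3152801-3174400 (1.07 ± 0.124), then chr16:3261601-3279800 (1.02 ± 0.190) and chr9:3302001-3316400 (1.08 ± 0.146), which lie inside H3K9me3 regions just named.

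The second question was whether ethanol altered the zone. No summary of it differed between ethanol and water after adjustment over 20 tests (5 measures, both marks and sexes; adjusted p of 0.519 or more). H3K9me3 islands covered 10.5 ± 1.62 Mb in ethanol males (SD, n = 6; 8.24, 10.7 and 12.7) and 10.8, 10.6, 10.4, 9.995 and 10.02 Mb in the 5 water pools, a difference of 0.146 Mb (exact permutation test over 462 splits, p = 0.870). The ethanol pools spread on both sides of the water pools. In females they covered 9.78 ± 0.577 Mb with ethanol (9.08, 9.74 and 10.4) and 9.15, 7.04, 10.3, 7.50 and 9.82 Mb with water. Water replicates 2 and 4 were the low ones and the groups overlapped (difference 1.03 Mb, exact p = 0.169). H3K36me3 covered 5.91 ± 1.36 Mb in ethanol males (3.76, 5.75 and 7.43) and 4.63, 5.57, 5.51, 5.45 and 6.05 Mb in water males (difference 0.472 Mb, exact p = 0.498). In females it covered 5.56 ± 0.915 Mb (4.41, 5.55 and 6.95) with ethanol and 5.88, 6.18, 6.55, 3.53 and 6.27 Mb with water (difference -0.118 Mb, exact p = 0.861). Water replicate 4 lay below all ethanol females, and the other water pools overlapped with them.

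The smallest p was that of ChIP/input of the zone against the rest in male H3K9me3. Its log2 value was -0.39 ± 0.09 with ethanol (n = 6; -0.53, -0.39 and -0.24) and -0.16, -0.21, -0.18, -0.33 and -0.31 with water, a difference of -0.15 (exact p = 0.0260, adjusted p = 0.519, with adjusted values of 0.0794 to 1 over all measures and alternatives). The groups overlapped at the highest ethanol and lowest water pools. Without islands of over 1000 input reads per kb the values were 0.02 ± 0.0062 with ethanol and 0.03 ± 0.0086 with water (difference -0.0036, exact p = 0.468), and with a zone from 4.0 Mb the difference was 0.02 in the other direction (exact p = 0.0346). In females the log2 value was -0.33 ± 0.14 with ethanol and -0.36 ± 0.18 with water (exact p = 0.71). H3K36me3 had -0.49 ± 0.38 against -0.24 ± 0.22 in males (exact p = 0.229), and female pools had -0.42 ± 0.15 with ethanol and -0.41 ± 0.21 with water (exact p = 0.961). Treatment differences were compared between the sexes for the 5 measures of each mark, and the smallest permutation p was 0.105 (adjusted p = 0.584).

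**Figure D4:**
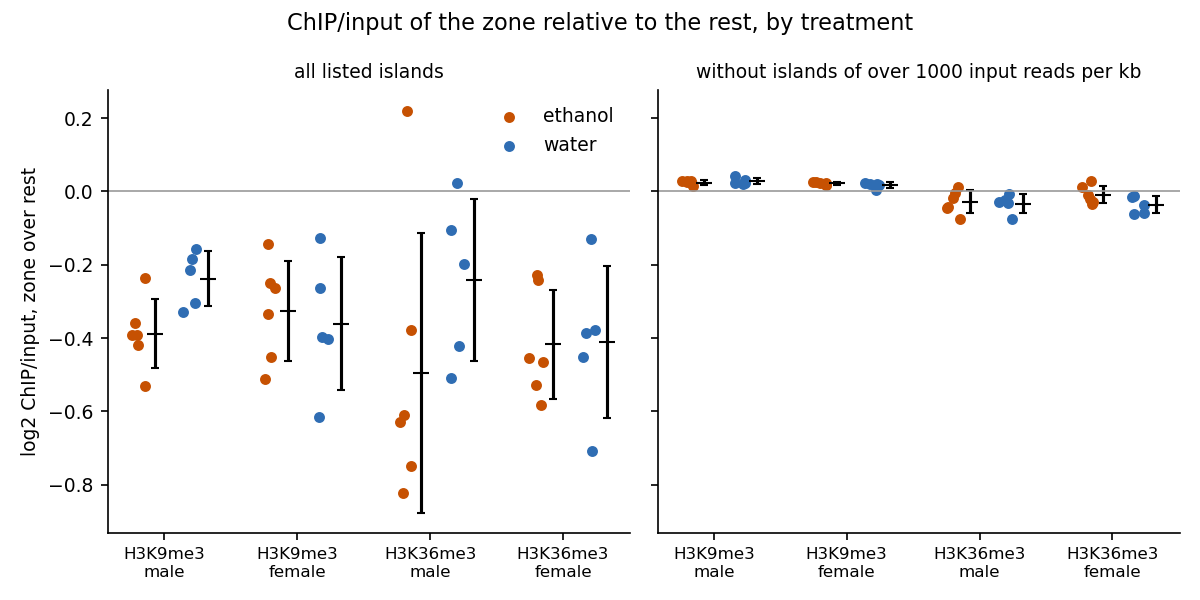
Log2 ChIP/input of the zone relative to the rest of the autosomes in each pool, with all listed islands (left) and without islands of over 1000 input reads per kb (right). Points are pools, bars the mean and SD of 6 ethanol and 5 water pools. Leaving out those islands brings all groups close to 0, and ethanol and water overlap in each comparison.

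In males the difference was seen at the loci of very high input. At the chromosome 9 array, log2 ChIP/input of H3K9me3 against the rest of the autosomes was -0.78 ± 0.15 in ethanol males (n = 6; -1.01, -0.78 and -0.55) and -0.34, -0.48, -0.40, -0.65 and -0.61 in water males, a difference of -0.28 (exact p = 0.0130, adjusted p = 0.156 over 12 tests chosen after the data were seen). The groups overlapped, and leaving out single pools gave -0.33 to -0.24. At the chromosome 12 locus the means were -0.86 ± 0.22 and -0.65 ± 0.07 (exact p = 0.0303, adjusted p = 0.182). The difference ran from -0.25 to -0.12 when single pools were left out, and its p passed 0.05 without ethanol replicates 2, 4 or 6 or water replicates 1, 2 or 3. In females the array had -0.67 ± 0.27 with ethanol and -0.68 ± 0.29 with water (exact p = 0.939).

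Single regions of the zone were compared in edgeR fits over all regions of the genome with an island in all 11 libraries of a sex. At an unadjusted p of at most 0.05, 50 of 1681 zone regions were called for H3K9me3 in males, 20 higher and 30 lower with ethanol, where 2.95% of all 27958 regions were called (1.69% higher and 1.26% lower). In females 63 of 1428 were called, 39 higher and 24 lower, where 3.99% of all 27242 regions were (2.14% higher and 1.85% lower). For H3K36me3 31 of 437 were called in males, 10 higher and 21 lower, where 5.68% of all 7533 regions were called (2.59% higher and 3.09% lower). In females 20 of 452 were called, 11 higher and 9 lower, where 3.61% of all 9019 were (1.77% higher and 1.84% lower). The zone was not tested against these background shares. After Benjamini-Hochberg adjustment edgeR called 0 regions in any comparison (0% of all tested), while DESeq2 called 1 zone region for male H3K9me3, 1 for female H3K9me3 and 0 for H3K36me3, where it called 8, 2, 3 and 0 of all regions (males and females for H3K9me3, then for H3K36me3). At the unadjusted threshold DESeq2 called 69, 63, 41 and 21 zone regions, and 1090 of 27958, 1052 of 27242, 537 of 7533 and 308 of 9019 over all. Without TMM scaling, male H3K36me3 gave 44 higher and 2 lower zone regions, where all 7533 regions gave 689 higher and 29 lower, and the median log2 change of all regions moved from 0.0049 to 0.18. The split of male H3K9me3 turned as well, to 27 higher and 23 lower without TMM, to 52 and 39 on ChIP/input with limma and to 32 and 18 without water replicate 1. Over all regions these settings gave 572 higher and 281 lower, 814 and 709, and 556 and 298, in the same order.

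The zone region of smallest p was chr1:6556401-6562200 in an intron of St18 (5800 bp, 94.6% repeat) in females. H3K9me3 ChIP reads, scaled to the reads of all regions as CPM, were 30.7 ± 3.24 with ethanol (n = 6; 26.6, 30.8 and 34.5) and 13.7, 19.2, 18.3, 16.6 and 20.4 with water. The groups did not overlap, and log2 ethanol over water was 0.79 (SE 0.12, edgeR adjusted p = 0.428, DESeq2 adjusted p = 3.9e-05). Input reads at the same region differed as much, with 29.8 ± 4.85 CPM with ethanol (22.4, 30.2 and 35.5) and 14.7, 20.8, 19.2, 16.1 and 19.5 with water, also without overlap (exact p = 0.00433, the smallest that 6 and 5 pools allow). ChIP/input was 1.53 ± 0.188 with ethanol and 1.40 ± 0.160 with water, and these overlapped (exact p = 0.251). In males the log2 difference in ChIP reads was 0.19, which missed the unadjusted threshold, and the difference between the sexes was not tested.

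**Figure D5:**
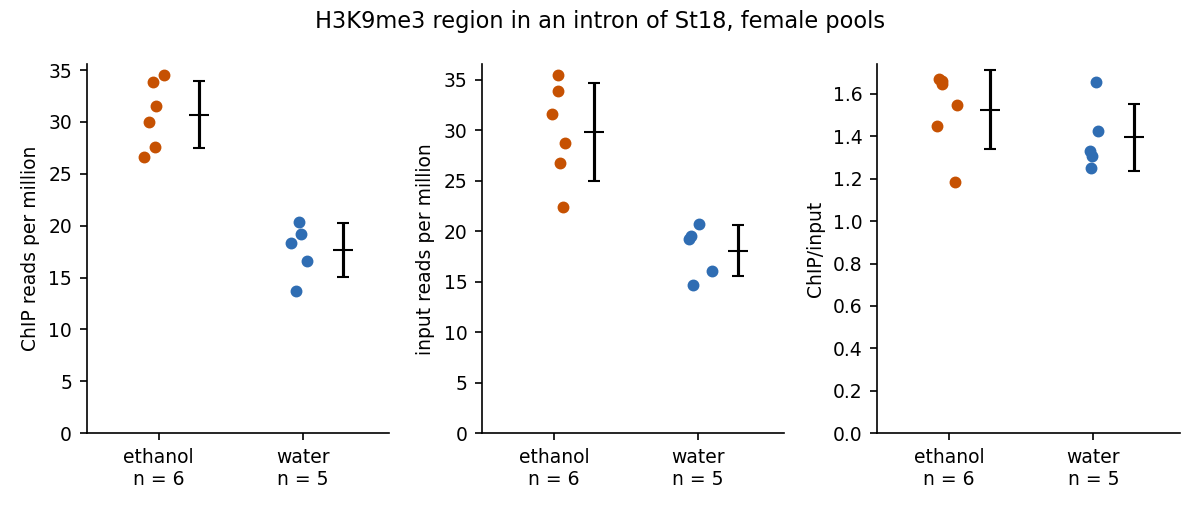
H3K9me3 ChIP reads and input reads (both as CPM) and ChIP/input at the region in an intron of St18, in 6 ethanol and 5 water pools of females; points are pools and bars mean and SD. Ethanol pools stand above all water pools in ChIP and in input reads, and the groups overlap in ChIP/input.

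At the other H3K9me3 regions named by smallest p, mean input differed in the same direction as ChIP. In females, chr3:4083001-4089000 425 kb from the nuclear receptor gene Hnf4g, had 44.5 ± 3.50 CPM with ethanol and 31.3 ± 5.76 with water (log2 0.50, SE 0.11, edgeR adjusted p = 0.999), and its input differed too (exact p = 0.00866). A region in an intron of Vmn2r34, chr7:7677001-7679600, had 17 ± 1.59 and 10.9 ± 3.00 (log2 0.64, SE 0.16, adjusted p = 0.999), with an exact p of 0.0649 for input. In males, chr18:3580001-3586200, 63.6 kb from Bambi, a decoy receptor of BMP signalling, had 31.7 ± 3.71 with ethanol (27.0, 31.7 and 36.1) and 43.4, 38.7, 41.1, 44.1 and 42.6 with water, without overlap (log2 -0.40, SE 0.09, edgeR adjusted p = 0.999). This was the male region that DESeq2 called (adjusted p = 0.0442). Its input was 29.2 with ethanol and 39.2 with water (exact p = 0.0173), and log2 ChIP/input differed by 0.0066. Also in males, chr3:6473001-6478000 was higher with ethanol (log2 0.46, SE 0.13, adjusted p = 0.999) and chr17:6480601-6482800, in an intron of the noncoding Gm26848, lower (log2 -0.52, SE 0.16), with exact p of 0.0823 and 0.0909 for input. On ChIP/input none of these 6 regions reached the unadjusted threshold with limma. What part the input reads have in the differences was not tested beyond this.

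At the H3K36me3 regions mean input also differed in the direction of ChIP. Both male regions given here were lower with ethanol and passed the unadjusted threshold on centred log2 ChIP/input with limma, but the exact permutation test on ChIP/input itself gave p = 0.394 at Sfi1 and p = 0.424 at the other. In an intron of Sfi1, chr11:3147601-3149000, CPM were 58.5 ± 8.58 (50.5, 55.8 and 69.1) and 79.1, 73.3, 172, 80.4 and 72.6. The groups did not overlap (log2 -0.70, SE 0.21, edgeR adjusted p = 0.850), but water replicate 3 raised the size of the difference, which was -0.37 without that pool. Input there was 56.0 CPM with ethanol and 70.9 with water (exact p = 0.303). The other, chr18:3115401-3120000, 2.49 kb from the vomeronasal gene Vmn1r238, had 78 ± 7.51 and 118 ± 36.2 (log2 -0.60, SE 0.18, adjusted p = 0.850, and -0.43 without TMM, which missed the unadjusted threshold), and its input was 65.5 and 70.9 (exact p = 0.468). In females the difference at this region was opposite (log2 0.25) and passed the unadjusted threshold, without a test between the sexes.

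In females, chr14:4968401-4969800 was higher with ethanol (139 ± 20.8 and 86.4 ± 14.6 CPM, log2 0.69, SE 0.14, edgeR adjusted p = 0.995), as was a region over an exon of Atg2a, an autophagy lipid transporter, chr19:6248201-6249400 (87.5 ± 15.8 and 60.8 ± 14.2, log2 0.53, SE 0.16, adjusted p = 0.995). The third, chr9:6464201-6468000, 85.4 kb from the growth factor gene Pdgfd, was lower (51.5 ± 7.67 and 66.2 ± 2.88, log2 -0.36, SE 0.12, adjusted p = 0.995). Input reads differed in the same direction at all 3 (exact p = 0.0130, 0.0303 and 0.0433), and on ChIP/input the log2 differences were 0.01, -0.06 and -0.08. At Atg2a the male difference was opposite (log2 -0.54), without a test between the sexes.

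Of the gene lists, the imprinted genes had 4 H3K9me3 and 3 H3K36me3 regions tested in each sex and none was called. At the brain-expressed genes 2 of 65 H3K9me3 regions were called in males (2.95% of all regions were), both lower with ethanol and in Atp6v1h and Esr1. In females 4 of 51 were called (3.99% of all), higher in St18 and in Insr, the insulin receptor, and lower in Frmd4a, a cell polarity scaffold, and Ghr, the growth hormone receptor. For H3K36me3, 4 of 22 regions were called in males (5.68% of all), all lower, among them 2 in Atp6v1h and 1 in the endocytic scaffold Itsn2, and 1 of 26 in females (3.61% of all), lower in Dync2h1. The chromatin enzymes had no tested region, and none of these calls passed edgeR's adjustment over all regions, while the female St18 region passed that of DESeq2.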

How the data were processed

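ChIP-seq of H3K9me3 and H3K36me3 and of input was analysed from 44 deposited island lists (22 pools per mark). The other 22 of the 66 samples are inputs, which entered through the lists. Per the labels and methods, 8 technical replicates of each precipitation were combined. For H3K9me3 the authors trimmed reads with CutAdapt, aligned them to GRCm38 (mm10) with Bowtie2 2.4.1, dropped reads in blacklisted places or with several matches, and ran SICER (windows of 200 bp, gap 400 bp). The H3K36me3 lists carry a gap of 600 bp, and whether multiply mapped reads were discarded for them is not given in the sources used here. The deposited read counts of ChIP and input per island were raw. The authors' p-value and FDR (a q-value) per island compare ChIP with scaled input, and their fold is the ratio of both divided by a constant per library. Lists were not filtered on FDR.

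Members and gene lists were chosen with earlier results of these data known. Groups came from sample titles. Coverage was divided by sequence other than N. Regions were bases under islands of at least 11 libraries, at least 200 bp long. Islands' reads were apportioned to regions by length, rounded, filtered with filterByExpr, TMM-scaled (CPM are reads over the library's reads in regions) and tested with edgeR 4.0.16 in R 4.3.3 (quasi-likelihood, treatment only, Benjamini-Hochberg), after a test on simulated data. DESeq2 1.42.0 and limma 3.58.1 (log2 ChIP/input, pseudocount 0.5) were alternatives. Zone and rest were compared by exact sign-change permutation within pools, treatments by exact permutation, and sexes by 100000 resamples. Named regions were the 3 of smallest p per mark and sex, and the 5 most enriched and 5 longest per mark, some of which, with a few genes of the lists and a sequence, are not reported here. Genes were from GENCODE vM21, and repeats from the soft-masking of GRCm38. Reads outside islands were not analysed here, so library depth is known only inside islands, and intervals of counting error were not used since pools give the spread. Alternatives were FDR-filtered islands, other zone limits and comparison stretches, no chromosome 14, other scalings, a replicate block and each pool left out. The bound of 1000 input reads per kb, the zone from 4.0 Mb and the tests of single high-input loci were added after seeing the data. Figures were made with matplotlib 3.10.9 and values computed with scipy 1.17.1, pandas 2.3.3 and numpy 2.4.6 under Python 3.11.15.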

Additional observations from a re-analysis of the deposited data

Results flagged for a closer look

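In 9 of 104 groups of pools examined, a single pool lay further from its neighbours than Dixon's criterion allows, and chance alone gives about 1 in 20. Of these, 2 were in female water replicate 4 of H3K36me3, which covered 3.53 Mb of the zone (the other pools of its group 5.88 to 6.55) while its zone held 17.9% of autosomal ChIP reads (11.4 to 13). Male ethanol replicate 4 of H3K36me3 had 21.6% of autosomal ChIP reads in the zone (11.1 to 12.2) and 327545 CPM at the chromosome 9 array (104521 to 152605). Male ethanol replicate 1 of H3K9me3 had 12.96% of ChIP reads in the zone (10.6 to 11.4). In female water replicate 2 of H3K9me3, 29.1% of zone islands had an FDR of at most 0.01 (74.0 to 84.3). Male ethanol replicate 4 of H3K9me3 had a log2 ChIP/input of -1.27 at the chromosome 12 locus (-0.88 to -0.65). At the Sfi1 intron, chr11:3147601, male water replicate 3 of H3K36me3 had 172 CPM (72.6 to 80.4).

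Chromosome X was outside the autosomal comparison. Its first stretch, from 3.0 to 8.0 Mb, was covered to 35.6% ± 3.47 by H3K9me3 in females (SD, n = 11; rest of the chromosome 20.6%) and 12.3% ± 2.62 in males (5.60%), higher than the rest in 11 of 11 pools of each sex. H3K36me3 covered 15.5% ± 2.99 in females (8.13%, 11 of 11 pools) and 2.402% ± 0.919 in males (2.18%, 8 of 11). These were not tested. The sexes also differed in the rest of the chromosome, and coverage was not adjusted for the number of X copies, which differs between males and females.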

How the results depend on the processing

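Coverage was higher in the zone than in the rest under every alternative run, and among alternative values of the zone against the rest 168 kept direction and side of the threshold, 18 changed direction and 6 lost the threshold. For treatment 149 kept them and 31 changed direction, and for named regions 37 kept them, 9 lost the threshold and 2 changed direction. Direction changes among treatment values concern differences that passed no adjusted threshold. Causes were not tested. Reads inside islands were fewest for H3K36me3, which also had the fewest regions to test, and the part of depth in this was not tested. Replicate numbers did not pair the pools (correlations of deviations -0.12 to 0.07), so the replicate block is a matter of form.

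Against 8 to 13 Mb, the share of islands at FDR 0.01 differed by 0.717 points (H3K9me3 females, call lost), 1.98 and 2.86 (H3K36me3 males and females), and against the distal 5 Mb by -0.837 and -1.60 for H3K36me3, where male ChIP/input differed by -0.18 (all 3 calls lost). With a zone to 6.0 Mb that share differed by 0.0555 and 0.552 for H3K36me3, and ethanol minus water in share of island length was 0.0040 (H3K9me3 males) and -0.0051 (H3K36me3 males).

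With islands at FDR 0.01, male H3K9me3 ChIP/input of the zone against the rest was -0.070 (call lost), chromosomes with a higher zone were 7, 5 (H3K9me3) and 4 (H3K36me3 females), and zone regions at unadjusted p of 0.05 were 19 of 799, 8 of 313, 0 of 6 and 0 of 11 (over all regions 280 of 11722, 197 of 6643, 4 of 61 and 5 of 189). Ethanol minus water was then -1.81 (input share) and 0.033 (log2 ChIP/input) for H3K9me3 males, 0.0035 (length share) for H3K9me3 females, -5.49 and 0.13 for H3K36me3 males and 0.073 (ChIP/input) for H3K36me3 females.

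Without islands of over 1000 input reads per kb, ChIP/input of the zone against the rest was 0.026 and 0.020 for H3K9me3, chromosomes with a higher zone were 8 (H3K9me3 males), 1 and 2 (H3K36me3), and ethanol minus water was -0.0084 (input share, H3K9me3 males), 0.103 (ChIP share) and 0.0044 (ChIP/input) for H3K36me3 males, and 0.206, 0.0913 (input share) and 0.028 for H3K36me3 females.

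From 4.0 Mb, zone against rest was -0.13, -0.15, -0.20 and -0.18 (ChIP reads), -0.18, -0.20, -0.27 and -0.27 (input) and 0.045, 0.052, 0.075 and 0.085 (ChIP/input) on the log2 scale, and 0.353 points in the FDR share of H3K9me3 females (call lost). Ethanol minus water was 0.0088 (length share), 0.0146 (ChIP share), -0.0342 (input share) and 0.017 (ChIP/input) in H3K9me3 males, 0.0177, 0.0869, 0.107 and -0.0084 in H3K9me3 females, 0.168 (ChIP share) and 0.046 (ChIP/input) in H3K36me3 males, and 0.142, 0.128 and 0.0023 (ChIP, input, ratio) in H3K36me3 females. Without chromosome 14 the length share of H3K9me3 females differed by 0.0069.

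With the replicate block, ethanol minus water was -0.0338 Mb (H3K9me3 males) and 0.112 Mb (H3K36me3 females) in covered length and 0.016 in ChIP/input of H3K36me3 females, and zone regions at the unadjusted threshold were 51, 68, 36 and 15 (812, 1024, 434 and 297 over all). DESeq2 called 1 male and 1 female H3K9me3 region after adjustment (8 and 2 over all). ChIP/input with limma gave 91 male H3K9me3 regions (1523 of 27965 over all), and 0.0066 at chr18:3580001 and -0.064 at Atg2a. Without TMM, female H3K36me3 had 13 regions (254 over all).

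With single pools left out, ethanol minus water ran from -0.298 to 0.599 Mb (H3K9me3 males) and -0.657 to 0.112 Mb (H3K36me3 females) in covered length, -0.0537 to 0.011 and -0.0497 to 0.0451 in length share of H3K9me3 males and females, -0.028 to 0.094 (H3K9me3 females) and -0.081 to 0.064 (H3K36me3 females) in ChIP/input, and -0.859 to 0.765 and -0.903 to 0.331 in ChIP and input share of H3K36me3 females. Male H3K9me3 regions numbered 48 to 76, the 76 without ethanol replicate 1 (1090 of 27956 over all). At the chromosome 12 locus the difference ran from -0.25 to -0.12.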
